A study of Mus musculus with 95 samples.

Results

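Complement is a cascade of plasma and cell-bound proteins that marks targets for clearance and calls in inflammatory cells. The 9 genes described here were chosen by symbol because they encode components of this cascade and its receptors, and all 9 were among the 25407 gene symbols listed for every library. The choice was made with earlier results of these data known. The 9 genes are C1qa, C1qb and C1qc (the 3 chains of the recognition molecule C1q), C1ra (the protease C1r, which C1q activates), C4b (a C4 protein, cleaved by the C1 complex), C3 (the component on which all activation routes converge), C3ar1 and C5ar1 (the receptors for the anaphylatoxins C3a and C5a) and Serping1 (C1 inhibitor, which blocks the C1 proteases).

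Gene expression had been measured by RNA-Seq in 95 libraries of male BKS.Cg-m +/+ Leprdb/J mice at 16 weeks of age, from 2 tissues of the peripheral nervous system, the dorsal root ganglia (DRG) and the sciatic nerve (SCN), and from the cortex and the glomeruli of the kidney. Each tissue had 4 groups. The db/db PIO mice carry the db allele of the leptin receptor on both chromosomes, which makes them obese and diabetic, and received pioglitazone, an agonist of the nuclear receptor PPARG, at 15 mg/kg for 11 weeks. The db/db mice were untreated, the db/+ PIO mice were lean carriers of a single db allele given the same treatment, and the db/+ mice were untreated lean carriers. Each group held 6 numbered replicate libraries per tissue, except DRG db/db with 5. The authors give 6 mice per group. The labels do not say that each library came from a separate mouse, and p-values measure the spread between these libraries. The db allele of the leptin receptor is present throughout the body of db/db mice. The diabetic groups therefore differ from the lean groups in body weight and feeding, and untreated db/db mice also in glucose. The authors report that db/db PIO mice were heavier than db/db and db/+ mice and had reduced blood glucose and glycated haemoglobin. The db/db PIO mice thus differ from db/db mice in body weight and glucose as well as in the drug.

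C1q is made mainly by macrophages and related myeloid cells, which release it locally, while C3, C4 and C1r come chiefly from the liver and also from epithelial and stromal cells of many tissues. The receptors C3ar1 and C5ar1 are best known on myeloid cells. In the peripheral nerve, complement takes part in the clearance of myelin debris by macrophages after injury, and in the kidney, C1q, C4 and C3 deposits in glomeruli are a hallmark of immune complex disease. Transcript levels in a tissue show local synthesis and do not measure the protein that arrives with the blood. In bulk tissue, fewer cells of a type and less RNA per cell cannot be told apart.

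Levels are given as FPKM, fragments per kilobase of transcript, scaled to the mapped fragments of the library, which are per length and can be set side by side between genes. An exact 0 in these tables was often a failed estimate. Actb, a cytoskeletal gene of every cell, was listed at 0 in 74 of 95 libraries with a median of 651.02 FPKM in the others, and Gapdh in 34 of 95 with a median of 234.36 FPKM. A 0 was therefore read as missing, and each value below is given with the number of libraries that had one. Of the 855 entries of the 9 genes, 244 were at 0. The zeros fell more often on high levels than on low ones. Over the gene and tissue pairs with a median under 1 FPKM, 9.62% of the entries were at 0, between 1 and 10 FPKM 24.6%, between 10 and 50 FPKM 32.6%, and at 50 FPKM or more 63.5%. The same held within single genes. C1qc was at 0 in 9 glomerular libraries whose C1qa ran between 10.54 and 74.28 FPKM, and had a value in 15 whose C1qa ran between 0.56 and 19.01 FPKM.

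**Figure D1:**
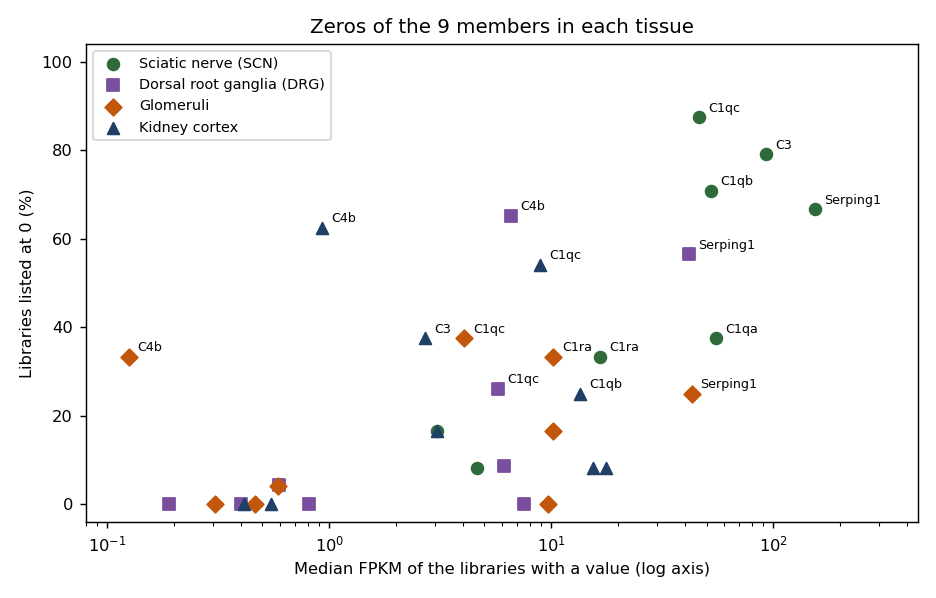
Percentage of libraries listed at 0 (vertical axis) against the median FPKM of the libraries with a value (horizontal axis, log scale), a point per gene and tissue, with points above 20% named. The pairs with a median of 50 FPKM or more, all in SCN, stand between 37.5% and 79.2%, above most pairs of low level. C4b in SCN, at 0 in all 24 libraries, has no median and is not drawn.

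Groups were compared within a tissue with limma on log2(FPKM + 1), all 4 groups of the tissue in 1 fit. A gene was kept if 5 or more libraries of the tissue had 1 FPKM or more, and tested if both groups had 3 or more values. All log2 fold changes below are on this scale, on which the change of a low gene comes out too small, and a gene was called at an adjusted p (Benjamini-Hochberg, over all genes tested) under 0.05. The filter on low values passed 7 of the 9 genes in SCN, 6 in cortex, 6 in glomeruli and 5 in DRG. Where a comparison needs a gene below the filter, its test without the filter is named as such. Across all comparisons of groups and tissues, 54 calls of these genes were made. With each 0 entered as a value of 0 instead, 2 of the 54 kept their call, 46 kept their direction without passing, and 6 turned in direction without passing. The 2 that remained were both of C1qa in glomeruli, where it had a value in all 24 libraries.

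The tissue labels were checked by marker genes. The podocyte gene Podxl had a median of 2278.77 FPKM in glomeruli (23 libraries with a value), against 8.65 FPKM in the 1 cortex library with a value, the other 23 being at 0. The SCN label is not checked here. The proximal tubule gene Slc34a1 had a median of 1874.9 FPKM in cortex (5 libraries), against 5.43 FPKM in glomeruli (9 libraries). The sensory neuron genes Scn10a, Isl1, Avil and Prph were listed at 0 in all 23 DRG libraries, so that the DRG label could not be checked by them. No 2 libraries were identical. Read totals were not used here, and the FPKM of a library summed to between 129009 and 601310.

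The 3 C1q genes lie next to each other on the minus strand of chromosome 4. In mm9, C1qb spans 136436044 to 136442102, C1qc 136445719 to 136448980 and C1qa 136451832 to 136454718, so that the cluster covers 18675 bases. Elsewhere, C1ra lies at 124462423 to 124473458 and C3ar1 at 122797156 to 122806179 on chromosome 6, C3 at 57343397 to 57367559 and C4b at 34865325 to 34880827 on chromosome 17, C5ar1 at 16832092 to 16844889 on chromosome 7, and Serping1 at 84605544 to 84615601 on chromosome 2. Near-identical copies limit what a level means here, since C4b reads can be shared with C4a and C1ra reads with C1rb, and levels of C4b and C1ra are uncertain to that extent. The 250 bases before the transcription start of C1qb and C1qc, from RefSeq on GRCm38.p6 (chr4:136886201-136886450 and chr4:136892915-136893164, minus strand), are shown because these neighbouring genes moved together across libraries. Capitals mark the core GAGGAA bound by PU.1, a transcription factor of macrophages, or its complement TTCCTC on the other strand.

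C1qb: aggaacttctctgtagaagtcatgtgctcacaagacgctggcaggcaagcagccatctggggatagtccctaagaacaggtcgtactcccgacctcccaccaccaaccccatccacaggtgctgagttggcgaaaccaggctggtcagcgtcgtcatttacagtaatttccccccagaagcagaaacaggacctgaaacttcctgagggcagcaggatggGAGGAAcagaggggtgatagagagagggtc

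C1qc: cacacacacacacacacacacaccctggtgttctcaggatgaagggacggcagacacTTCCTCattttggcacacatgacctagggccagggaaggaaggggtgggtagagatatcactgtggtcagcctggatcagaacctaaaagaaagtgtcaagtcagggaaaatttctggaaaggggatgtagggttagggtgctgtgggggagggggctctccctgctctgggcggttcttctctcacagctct

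The core lies 30 bases before the start of C1qb on the coding strand and 193 bases before that of C1qc on the opposite strand. Of the 6 genes with a RefSeq promoter sequence (C1qb, C1qc, C1ra, C3, C3ar1 and C5ar1), these 2 held the core in either orientation, against 23.3% of 32851 promoters of the same length. Such a match describes the letters only and is not a binding site.

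The C1q chains followed each other closely. Over the 63 libraries with a value for both, the ratio of C1qb to C1qa had a median of 1.06 (0.622 to 3.64), with a Pearson correlation of 0.96 on the log2 scale, and over 46 libraries the ratio of C1qc to C1qa had a median of 0.795 (0.366 to 1.43), with a correlation of 0.98. Within tissues the correlation of C1qb with C1qa was 0.97 in glomeruli (20 libraries), 0.96 in cortex (16 libraries), 0.98 in SCN (6 libraries) and 0.75 in DRG (21 libraries). These points share the library, its depth and the tissue, and are given as a description.

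In untreated lean mice, most of the 9 genes were highest in the sciatic nerve. The tissues may come from the same mice. The authors give 6 mice per group as the source of the 4 tissues, and the labels do not say which libraries share a mouse. P-values between tissues treat the libraries as independent. With condition and replicate number as a block, 18 of 19 calls between tissues were kept. C1qa had between 53.48 and 90.72 FPKM in SCN db/+ (4 libraries), 16.45 to 41.95 in cortex (5 libraries), 5.32 to 74.28 in glomeruli (6 libraries) and 4.76 to 6.84 in DRG (6 libraries). SCN stood above cortex and DRG without overlap, and the glomerular range reached into that of SCN through a single library. The level in SCN was higher than in DRG by 3.27 (SE 0.35, adjusted p = 1.65e-13) and higher than in glomeruli by 2.08 (SE 0.35, adjusted p = 2.95e-07) on the log2 scale. In glomeruli it was lower than in cortex by a log2 difference of -0.81 (SE 0.32, adjusted p = 0.0213), a call that ended without glomerular db/+ replicate 4 or 5 or cortex db/+ replicate 1 and stood at -1.27 without glomerular db/+ replicate 2. C1qb had 52.2, 55.17 and 50.59 FPKM in SCN db/+, against 5.03 to 6.12 in DRG, a log2 difference of 3.03 (SE 0.29, adjusted p = 5.74e-14), and was higher in SCN than in glomeruli by 1.97 (SE 0.31, adjusted p = 2.15e-07). The differences between SCN and cortex, between glomeruli and DRG and between DRG and cortex were not tested for any of the 9 genes.

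C3 was far apart between tissues. It had 97.12, 93.35 and 92.71 FPKM in the 3 SCN db/+ libraries with a value, 2.05 to 2.97 in cortex (5 libraries), 0.52 to 1.25 in glomeruli (6 libraries) and 0.4 to 1.13 in DRG (5 libraries). No SCN value came near those of the other tissues, while glomeruli and DRG overlapped. The log2 difference between SCN and glomeruli was 5.78 (SE 0.24, adjusted p = 9.82e-29), and glomeruli were below cortex by a log2 difference of -1.02 (SE 0.21, adjusted p = 1.52e-05). By median level in db/+, Serping1 was the most abundant member in SCN, DRG and glomeruli. It had 263.63, 252.91 and 154.63 FPKM in SCN db/+, against 41.7, 37.98 and 41.86 FPKM in DRG and 42.71, 31.09, 23.46 and 36.78 FPKM in glomeruli. It was higher in SCN than in DRG by 2.40 (SE 0.24, adjusted p = 1.28e-12) and than in glomeruli by 2.70 (SE 0.22, adjusted p = 7.18e-15), and higher in glomeruli than in cortex, at 15.85 to 25.3 FPKM, by 0.72 (SE 0.19, adjusted p = 6.66e-04). The last call ended with median-of-ratios rescaling (log2 difference 0.24, adjusted p = 0.249) and with quantile normalization (0.33, adjusted p = 0.174).

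C1ra fell in the order SCN (16.6 to 25.41 FPKM in db/+), glomeruli (6.5 to 10.57), cortex (1.96 to 4.57) and DRG (0.38 to 0.96), with no overlap between neighbours. SCN was above glomeruli by 1.30 (SE 0.15, adjusted p = 2.02e-11) and glomeruli above cortex by 1.11 (SE 0.14, adjusted p = 2.46e-10). C4b went against this order, with 5.61 and 7.81 FPKM in 2 DRG db/+ libraries, 0.68 to 1.37 in 3 cortex libraries, 0.11 to 0.19 in 4 glomerular libraries and a 0 in all 24 SCN libraries, which says nothing of its level there. The receptors were highest in SCN, at 1.18 to 2.52 FPKM for C3ar1 and 3.16 to 6.08 FPKM for C5ar1 in db/+ (6 libraries each). In DRG, C3ar1 had 0.12 to 0.19 and C5ar1 0.24 to 0.54 FPKM. In all, 3 of 3 members tested were called between SCN and DRG (76.4% of all genes tested were called), 4 of 4 between glomeruli and cortex (75%) and 5 of 5 between SCN and glomeruli (64%), so that being called sets these genes apart little from other genes. The median log2 difference of all genes tested was 0.23 for SCN over DRG, -0.16 for SCN over glomeruli and 0.32 for glomeruli over cortex as deposited, against -0.09, -0.07 and -0.08 with median-of-ratios rescaling.

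**Figure D2:**
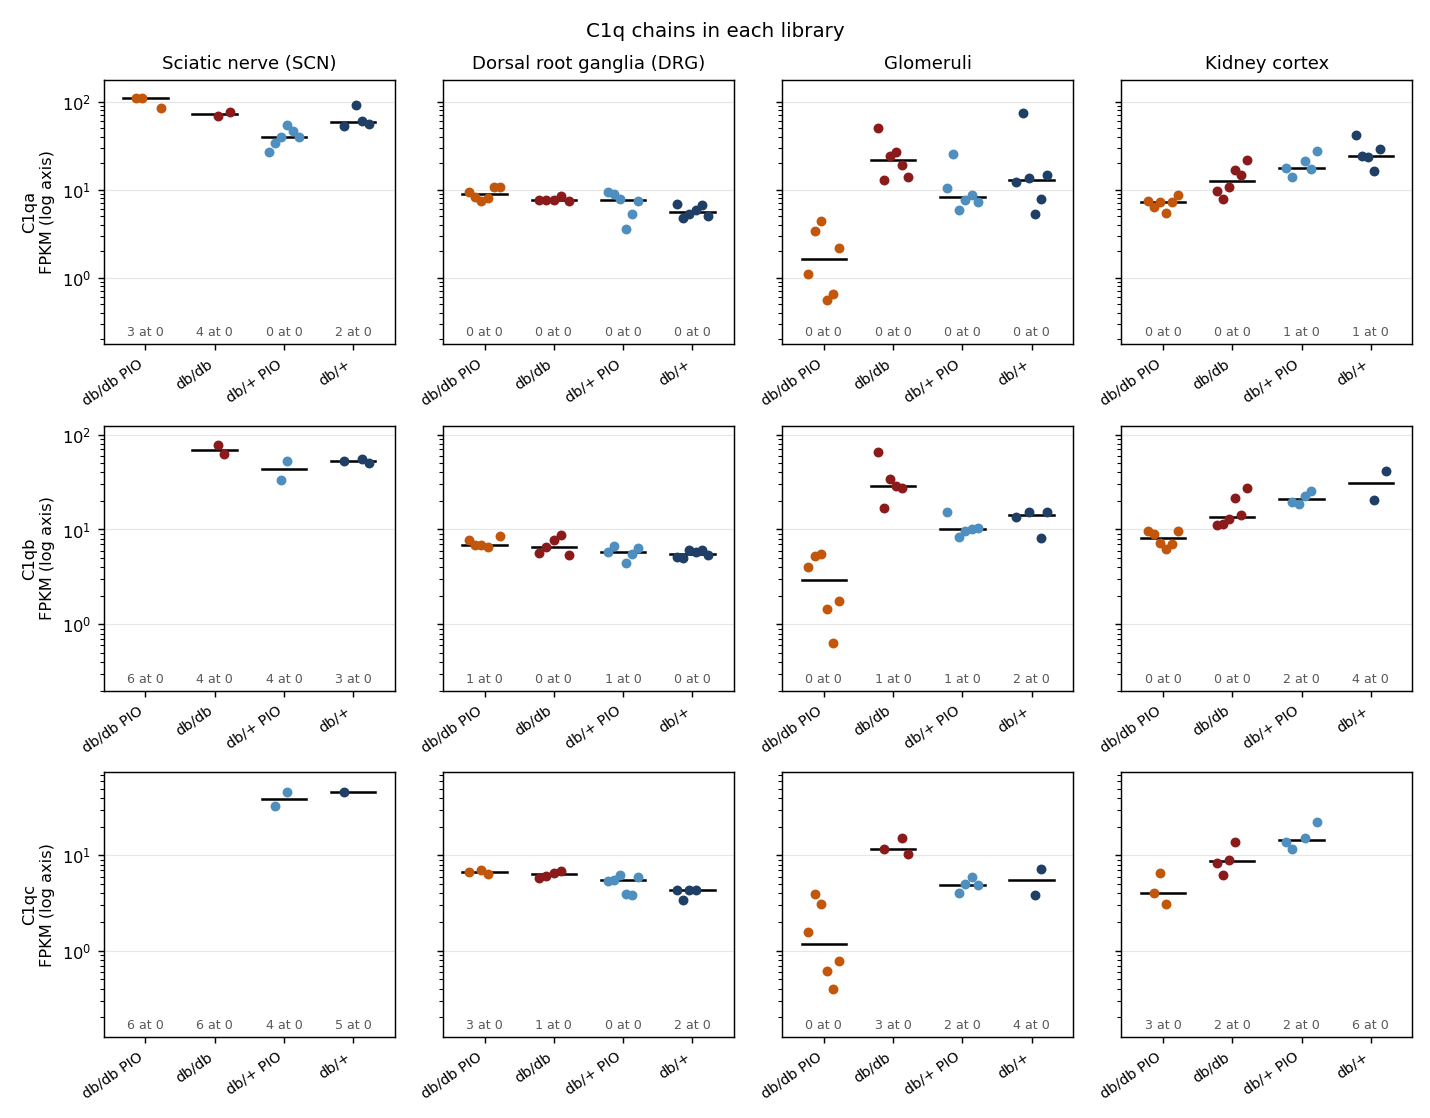
FPKM (log axis) of C1qa, C1qb and C1qc in each library of the 4 tissues, by group. Points are libraries, bars are medians of the libraries with a value, and the number of libraries listed at 0 stands under each group. In glomeruli, the db/db PIO libraries sit between 0.56 and 4.36 for C1qa, all below the db/db libraries, which sit between 13 and 50.29.

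In glomeruli, pioglitazone in db/db mice was accompanied by lower transcripts of all 3 C1q chains and by higher transcripts of Serping1. C1qa had 1.11, 3.37, 4.36, 0.56, 0.65 and 2.16 FPKM in db/db PIO, against 50.29, 13, 24.07, 26.99, 19.01 and 13.79 FPKM in db/db. Every treated library lay below every untreated one, and the mean was 2.04 ± 1.56 FPKM in db/db PIO and 24.5 ± 13.8 FPKM in db/db (SD, n = 6 each), a ratio of 12.1 between db/db and db/db PIO. The log2 fold change was -3.08 (SE 0.47, adjusted p = 9.28e-05, limma). C1qb had 4.04, 5.31, 5.45, 1.44, 0.64 and 1.77 FPKM in db/db PIO, against 65.72, 16.81, 33.95, 28.7 and 27.09 FPKM in the 5 db/db libraries with a value, and fell by 3.15 (SE 0.35, adjusted p = 1.09e-05). C1qc had 1.59, 3.9, 3.13, 0.61, 0.4 and 0.79 FPKM in db/db PIO, against 11.69, 15.21 and 10.34 FPKM in the 3 db/db libraries with a value, and fell by 2.44 (SE 0.35, adjusted p = 3.25e-04). The groups did not overlap for either gene, and the 3 db/db libraries in which C1qc was at 0 were those with the highest C1qa.

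Serping1, the inhibitor of C1r and C1s, went the other way. It had 60.81, 73.06, 56.95, 70.2 and 65.01 FPKM in db/db PIO, against 48.96, 50.29, 35.41 and 46.74 FPKM in db/db, with no overlap, and rose by 0.52 (SE 0.15, adjusted p = 0.0163). Without glomerular db/db replicate 5 that call ended (adjusted p = 0.0584). C1ra, at 19.11, 15.47, 13.74 and 13.48 FPKM in db/db PIO and 12.29, 16.75 and 7.75 FPKM in db/db, had a log2 change of 0.36 (SE 0.20, adjusted p = 0.222), and C3, at 0.06 to 1.28 FPKM in db/db PIO and 0.31 to 1.46 FPKM in db/db, one of -0.14 (SE 0.19, adjusted p = 0.643). Thus 4 of the 6 members tested were called, where 23.1% of all genes tested were, and the members' median log2 fold change was -1.29, against -0.04 over all genes tested. Of 18 macrophage markers, 10 were tested and 8 were lower in db/db PIO, with a median of -1.51. The 3 macrophage markers with a value in every glomerular library (Cd14, Lyz1 and Cx3cr1) summed to between 12.18 and 15.1 FPKM in db/db PIO and between 12.89 and 37.33 FPKM in db/db. All 3 fibroblast markers tested and all 5 collecting duct markers tested were lower as well, while 2 of 2 neutrophil markers tested were higher. The part of these other cells in the fall of C1q was not tested.

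The receptors were below the filter in glomeruli, with values in all 24 libraries. C3ar1 had 0.31, 0.18, 0.28, 0.07, 0.17 and 0.36 FPKM in db/db PIO, against 1.9, 0.89, 0.82, 0.78, 0.59 and 0.55 FPKM in db/db. The groups did not overlap, and the test without the filter gave a log2 change of -0.62 (SE 0.16, adjusted p = 0.00793, with 18% of all genes so tested called). C5ar1, at 0.08 to 0.77 FPKM in db/db PIO and 0.5 to 2.45 FPKM in db/db, had -0.55 (SE 0.19, adjusted p = 0.0516). C4b had 0.08, 0.33, 0.11 and 0.07 FPKM in db/db PIO, against 0.22, 0.2 and 0.39 FPKM in db/db, with a log2 change without the filter of -0.15 (SE 0.08, adjusted p = 0.193).

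With diabetes alone, C1qb and Serping1 were called higher in glomeruli. C1qb had the 5 db/db values given above, against 13.61, 15.25, 8.12 and 15.15 FPKM in db/+, with no overlap, and rose by 1.24 (SE 0.38, adjusted p = 0.0232). C1qa had 12.2, 74.28, 13.67, 5.32, 7.82 and 14.61 FPKM in db/+, and its groups overlapped (log2 fold change 0.59, SE 0.47, adjusted p = 0.375). Glomerular db/+ replicate 2, the library with 74.28 FPKM of C1qa, decided that value. Without it the C1qa change was 1.05 (SE 0.38, adjusted p = 0.0399), which passed. The same library was at 0 for C1qb and so did not enter the C1qb test. Serping1, at 42.71, 31.09, 23.46 and 36.78 FPKM in db/+, rose by 0.45 (SE 0.15, adjusted p = 0.0413). Both calls were fragile, that of C1qb ending without db/db replicate 1 or db/+ replicate 5 (highest adjusted p = 0.0764) and that of Serping1 without db/db replicate 2, 3 or 6 or db/+ replicate 2 or 5 (highest adjusted p = 0.136) and with either rescaling (adjusted p = 0.0955 with median-of-ratios and 0.0636 with quantile normalization). The C1qb call also ended with a pseudocount of 0.1 (adjusted p = 0.0598), and that of Serping1 without the filter (0.0542), with the 2 groups alone (0.125) and with the replicate number as a block (0.0739). So 2 of 5 members tested were called, beside 25.4% of all genes tested, and 1 of 10 macrophage markers tested was higher. All 5 collecting duct markers and all 3 fibroblast markers tested were higher, and 4 of 5 interferon-stimulated genes tested were lower. The 3 collecting duct markers with a value in every library (Krt18, Krt19 and Atp6v0d2) summed to 32.26 to 54.55 FPKM in db/db and 0.94 to 17.81 FPKM in db/+, without overlap, and the 2 such fibroblast markers (Col3a1 and Dcn) to a median of 9.79 FPKM in db/db and 2.25 FPKM in db/+. Their part in the C1qb and Serping1 results was not tested. C3ar1 had 0.35, 1.43, 0.22, 0.12, 0.13 and 0.27 FPKM in db/+ and rose by 0.46 without the filter (SE 0.16, adjusted p = 0.0410, 19% of all genes called), a call that ended without db/db replicate 1, 2, 3 or 4 or db/+ replicate 1, 3, 4, 5 or 6 (highest adjusted p = 0.112). The comparisons of diabetes and of pioglitazone share the db/db libraries, so that they are not independent.

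Set against the lean groups, treated diabetic glomeruli were low in C1q and high in Serping1. Against db/+ PIO, C1qa was lower, at a log2 change of -1.97 (adjusted p = 0.00957), as were C1qb at -1.67 (adjusted p = 0.00485) and C1qc at -1.28 (adjusted p = 0.0241), while Serping1 was higher by 0.74 (adjusted p = 0.00272) and C1ra by 0.64 (adjusted p = 0.0483). The C1ra call ended in 14 of 24 fits that left out a single library, spread over the 4 groups, and the C1qc call without db/+ PIO replicate 4, 5 or 6 (highest adjusted p = 0.0646) and with quantile normalization (adjusted p = 0.145). The db/+ PIO values were 10.54, 25.18, 5.93, 7.6, 8.77 and 7.29 FPKM for C1qa and 31.53, 40.77, 42.9, 37.72 and 41 FPKM for Serping1, and neither overlapped with db/db PIO. Against db/+, C1qa was lower, at -2.49 (adjusted p = 0.00150), as was C1qb at -1.91 (adjusted p = 0.00279), while Serping1 was higher by 0.97 (adjusted p = 4.46e-04) and C1ra by 0.83 (adjusted p = 0.00959). Of the members tested, 5 of 6 and 4 of 5 were called, where 8.41% and 8.52% of all genes tested were. Of the macrophage markers, 2 of 12 tested were lower against db/+ PIO and 3 of 13 against db/+. The sum of Cd14, Lyz1 and Cx3cr1 had a median of 13.58 FPKM in db/db PIO, 13.81 FPKM in db/+ PIO and 14.01 FPKM in db/+, with overlapping ranges. It holds 3 of 18 macrophage markers, those with a value in every library. Since zeros fell more often on high levels, abundant markers can be left out, and the sum does not measure macrophage content. The 3 neutrophil markers with a value in every library (S100a8, S100a9 and Ltf) summed to 39.69 to 156.57 FPKM in db/db PIO, 3.58 to 41 FPKM in db/+ PIO and 6.94 to 37.59 FPKM in db/+, and their part in these results was not tested.

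**Figure D3:**
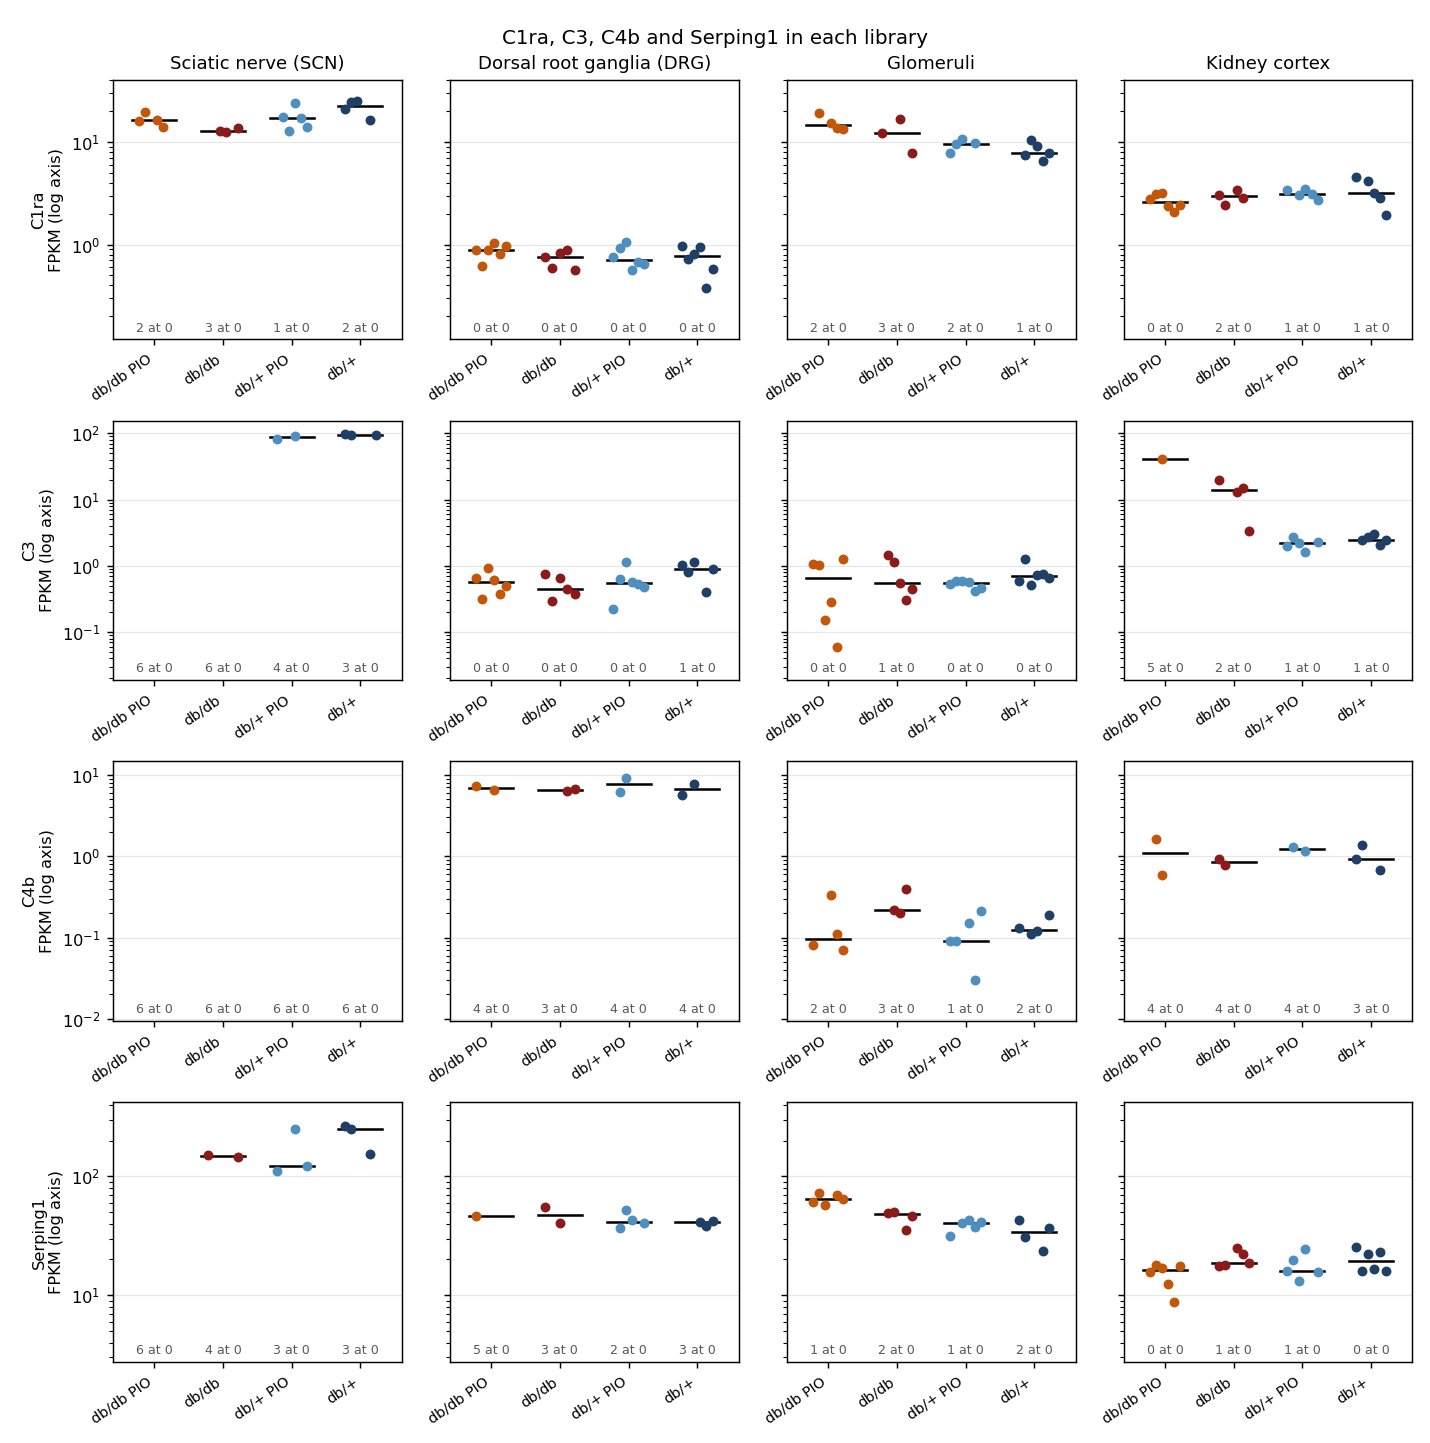
FPKM (log axis) of C1ra, C3, C4b and Serping1 in each library, by group and tissue. Points are libraries, bars are medians of the libraries with a value, and the number at 0 stands under each group. C3 in cortex db/db sits between 3.34 and 19.54, all above db/+ at 2.05 to 2.97, and C3 in SCN has values in the lean groups alone.

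In kidney cortex, diabetes was accompanied by lower C1qa and higher C3. C1qa had 9.56, 7.81, 10.82, 16.54, 14.52 and 21.75 FPKM in db/db, against 41.95, 23.94, 23.35, 16.45 and 29.09 FPKM in db/+, and fell by 0.96 (SE 0.23, adjusted p = 0.00778). The ranges overlapped through db/db replicates 4 and 6. Fitted on the db/db and db/+ libraries alone, the call ended (adjusted p = 0.0608). C1qb was at 0 in 4 and C1qc in 6 of the 6 db/+ libraries and went untested. C3 had 19.54, 12.91, 14.78 and 3.34 FPKM in db/db, against 2.48, 2.7, 2.97, 2.05 and 2.43 FPKM in db/+, with no overlap, and rose by 1.75 (SE 0.32, adjusted p = 0.00264). The 2 other db/db libraries and 5 of the 6 db/db PIO libraries were at 0 for C3, and the remaining db/db PIO library had 40.77 FPKM, so that the effect of pioglitazone on C3 was not tested. Serping1 differed by 0.04 (SE 0.18, adjusted p = 0.933) and C1ra by -0.12 (SE 0.15, adjusted p = 0.729). So 2 of 4 members tested were called, with 10.3% of all genes tested called, and 7 of 13 macrophage markers tested and 6 of 6 interferon-stimulated genes tested were lower in db/db, whose part in the fall of C1qa was not tested.

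With pioglitazone, C1qa and C1qb of the diabetic cortex were lower than without it. C1qa had 7.35, 6.43, 7.32, 5.4, 7.22 and 8.59 FPKM in db/db PIO, overlapping with db/db, and fell by 0.78 (SE 0.22, adjusted p = 0.0475). C1qb had 9.75, 8.99, 7.28, 6.26, 7.07 and 9.58 FPKM in db/db PIO, against 11.05, 11.51, 12.82, 21.34, 14.11 and 27.09 FPKM in db/db, with no overlap, and fell by 0.86 (SE 0.21, adjusted p = 0.0319). Both calls ended with either rescaling (adjusted p of 0.0645 to 0.152) and with the 2 groups alone (0.0799 and 0.0671), and on leaving out a single library that of C1qa ended in 17 of 24 fits, spread over the 4 groups, and that of C1qb without db/db replicate 4 or db/db PIO replicate 2, 3, 4 or 5 (highest adjusted p = 0.0712). C1qc, at 4.04, 6.57 and 3.08 FPKM in db/db PIO and 8.38, 6.21, 8.92 and 13.79 FPKM in db/db, had a log2 change of -0.89 (SE 0.28, adjusted p = 0.10). The count was 2 of 5 members tested, with 3.24% of all genes tested called, and 2 of 14 macrophage markers tested were lower.

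Set against the lean groups, treated diabetic cortex was low in the C1q chains that could be tested. Against db/+ PIO, where C1qa had 17.65, 14.09, 21.24, 17.16 and 27.41 FPKM, C1qa was lower, at a log2 change of -1.33 (SE 0.23, adjusted p = 2.51e-04), as were C1qb at -1.30 (SE 0.23, adjusted p = 6.58e-04) and C1qc at -1.61 (SE 0.28, adjusted p = 0.00179). These were 3 of 5 members tested, beside 19.7% of all genes tested, and 10 of 12 macrophage markers tested were lower. Against db/+, C1qa was lower, at -1.74 (SE 0.23, adjusted p = 1.00e-05), the only call among 3 members tested (22.7% of all genes tested), and 13 of 13 macrophage markers tested were lower. C3ar1 had 0.26, 0.13, 0.22, 0.25, 0.15 and 0.13 FPKM in cortex db/db PIO, against 0.4, 0.3, 0.74, 0.65, 0.43 and 0.55 FPKM in db/db and 1.12, 0.41, 0.81, 0.75, 0.82 and 0.55 FPKM in db/+. The treated libraries lay below all others of both groups. Without the filter, C3ar1 fell by 0.34 (SE 0.08, adjusted p = 0.0273, 1.99% of all genes called) against db/db, by 0.54 (SE 0.08, adjusted p = 4.57e-05, 17.4% called) against db/+ and by 0.24 (SE 0.08, adjusted p = 0.0443, 14.5% called) against db/+ PIO. The call against db/db ended without db/db replicate 3 or 4 or db/db PIO replicate 2, 5 or 6 (highest adjusted p = 0.0635), and that against db/+ PIO in 11 of 24 fits without a single library, from every group but db/db (highest adjusted p = 0.0865). C5ar1, at 0.14 to 0.53 FPKM in db/db PIO and 0.38 to 2.42 FPKM in db/+, with overlapping ranges, fell by 0.49 against db/+ (SE 0.16, adjusted p = 0.0322). The highest db/+ value belonged to replicate 6, without which the log2 change was -0.31, and the call ended without db/db PIO replicate 1, 2, 4 or 5 (highest adjusted p = 0.0656).

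The kidney compartments differed in their responses. The response of C1qa to diabetes was higher in glomeruli than in cortex by 1.55 (SE 0.45, adjusted p = 0.0112) and that of C3 lower by a difference of -1.75 (SE 0.31, adjusted p = 3.47e-05), 2 calls among 4 members tested, with 15.5% of all genes tested called. Without the filter, C3ar1 (0.66, SE 0.21, adjusted p = 0.0240) and C5ar1 (0.75, SE 0.25, adjusted p = 0.0280) differed as well, both higher in glomeruli (13.8% of all genes called). The C3ar1 difference ended without glomerular db/db replicate 1, glomerular db/+ replicate 4 or 5 or cortex db/+ replicate 1 (highest adjusted p = 0.0803), and that of C5ar1 without glomerular db/db replicate 1, glomerular db/+ replicate 3 or 4, cortex db/db replicate 2 or cortex db/+ replicate 6 (highest adjusted p = 0.104). The response to pioglitazone in db/db mice was lower in glomeruli than in cortex for C1qa (-2.30, SE 0.44, adjusted p = 6.41e-05), C1qb (-2.29, SE 0.34, adjusted p = 1.35e-06) and C1qc (-1.55, SE 0.40, adjusted p = 0.00606) and higher for Serping1 (0.96, SE 0.26, adjusted p = 0.00854), 4 of 5 members tested, with 14.5% of all genes tested called. The C1qa difference in the response to diabetes ended with quantile normalization (adjusted p = 0.0502), as did the C1qc difference in the response to pioglitazone (adjusted p = 0.134), which also ended with a block of condition and replicate number (adjusted p = 0.0642).

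**Figure D4:**
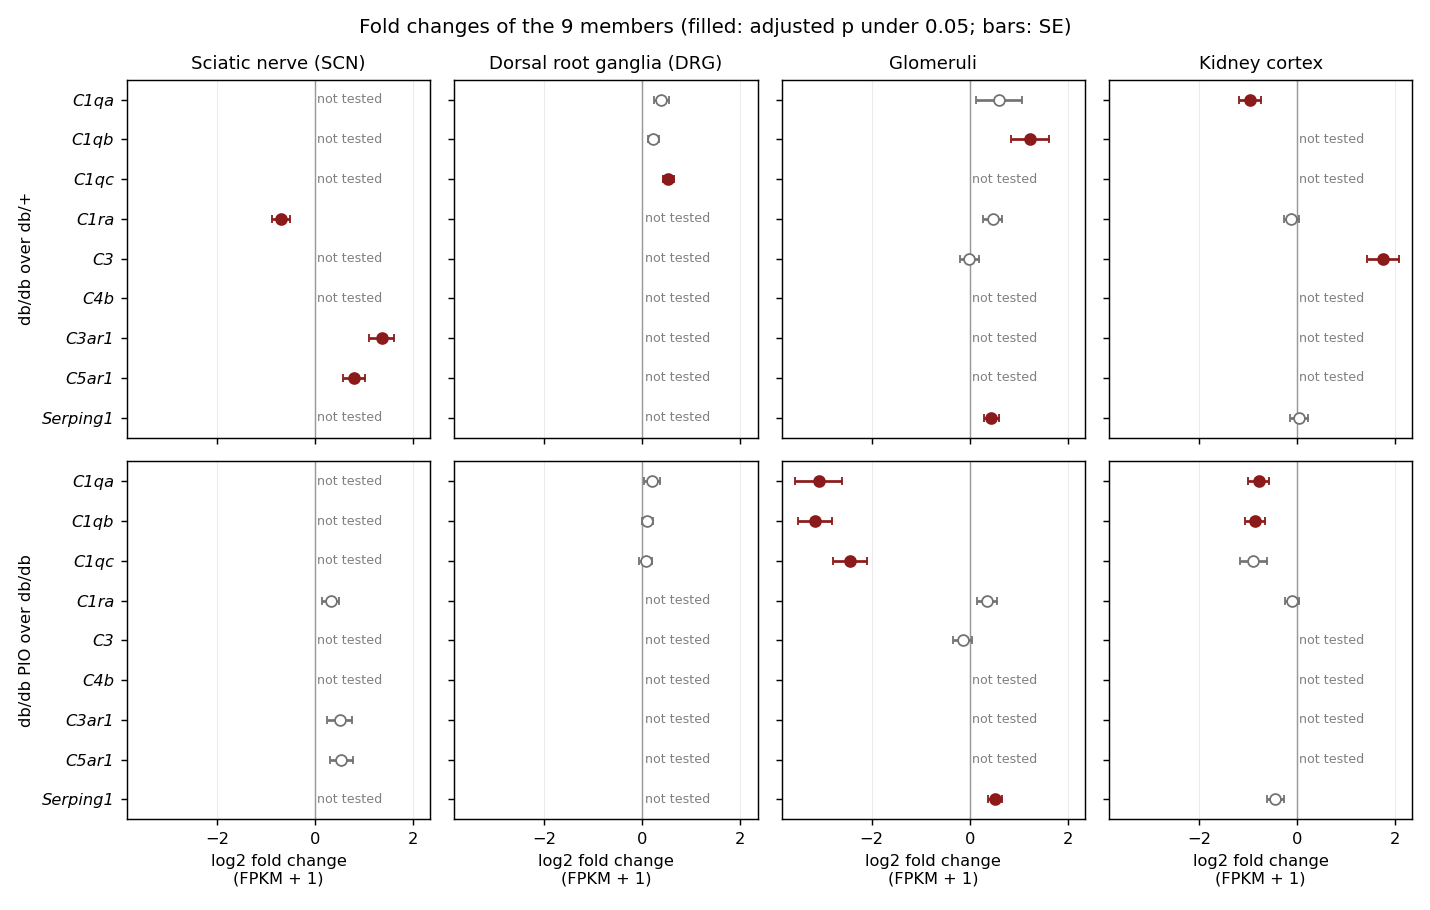
Log2 fold changes of FPKM + 1 (horizontal axis) of the 9 genes for diabetes, db/db over db/+ (upper row), and for pioglitazone, db/db PIO over db/db (lower row), in the 4 tissues. Bars are standard errors, filled points had an adjusted p under 0.05, and genes below the filter or with under 3 values in a group are marked as not tested. The C1q chains in glomeruli with pioglitazone lie farthest to the left, between -3.15 and -2.44.

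In the sciatic nerve, diabetes was accompanied by higher transcripts of both anaphylatoxin receptors and lower C1ra. C3ar1 had 10.9, 3.62, 7.33, 4.04 and 5.49 FPKM in db/db, against 1.45, 1.57, 2.35, 2.52, 1.22 and 1.18 FPKM in db/+, with no overlap, and rose by 1.36 (SE 0.25, adjusted p = 0.00138). C5ar1 had 12.8, 8.23, 4.1, 9.75 and 6.22 FPKM in db/db, against 3.44, 3.16, 5.17, 6.08, 3.45 and 3.29 FPKM in db/+, with overlapping ranges, and rose by 0.81 (SE 0.22, adjusted p = 0.0209). That call ended without SCN db/db replicate 1 or 4 (highest adjusted p = 0.0690). C1ra had 12.89, 12.47 and 13.63 FPKM in db/db, against 21.13, 24.44, 25.41 and 16.6 FPKM in db/+, with no overlap, and fell by 0.69 (SE 0.18, adjusted p = 0.0192). It had a value in 3 of 6 db/db and 4 of 6 db/+ libraries. Zeros fell more often on high levels, and their part in this fall was not tested. With quantile normalization, which moved the median of all genes to 0.51, C1ra was at -0.34 (adjusted p = 0.188), and with the replicate number as a block its adjusted p was 0.0517. All 3 members tested were called, with 14.9% of all genes tested called, and 2 of 9 macrophage markers tested were higher in db/db.

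C1qa could not be tested for diabetes in SCN, with 69.3 and 76 FPKM in 2 db/db libraries and 53.48, 90.72, 60.86 and 55.18 FPKM in db/+. Its 4 other db/db libraries were at 0. C1qb, C1qc and Serping1 were at 0 in all 6 db/db PIO libraries of the nerve, and C3 was at 0 in all 12 diabetic nerve libraries, while the 5 lean libraries with a value had 83.19 to 97.12 FPKM. Given how zeros fell on high levels, these entries were read as missing and no direction was drawn from them.

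Pioglitazone in db/db mice called none of the 3 members tested in SCN. C3ar1 had 7.28, 11.85, 14.36, 8.75 and 4.37 FPKM in db/db PIO, overlapping with db/db, with a log2 change of 0.50 (SE 0.26, adjusted p = 0.233), and C5ar1 had 8.07, 16.46, 16.75, 12.45 and 7.7 FPKM in db/db PIO, with 0.54 (SE 0.23, adjusted p = 0.153). Of all genes tested, 10.1% were called. Against db/+ PIO, the treated diabetic nerve was higher in C3ar1 by 2.10 (SE 0.27, adjusted p = 1.26e-05), in C5ar1 by 1.82 (SE 0.22, adjusted p = 4.09e-06) and in C1qa by 1.34 (SE 0.20, adjusted p = 1.67e-04). The db/+ PIO libraries had 1.1 to 1.53 FPKM of C3ar1, 2.13 to 3 FPKM of C5ar1 and 26.63 to 54.7 FPKM of C1qa, against 110.91, 108.76 and 85.49 FPKM of C1qa in the 3 db/db PIO libraries with a value, and no ranges overlapped. These were 3 of 4 members tested, with 33.8% of all genes tested called, and 7 of 10 macrophage markers tested were higher and 1 was lower. Against db/+, C3ar1 was higher by 1.86 (SE 0.25, adjusted p = 1.76e-05), C5ar1 by 1.35 (SE 0.22, adjusted p = 1.25e-04) and C1qa by 0.66 (SE 0.21, adjusted p = 0.0297), 3 of 4 members tested, with 31.8% of all genes tested called. The last call ended without SCN db/+ replicate 2, 5 or 6 (highest adjusted p = 0.0713).

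**Figure D5:**
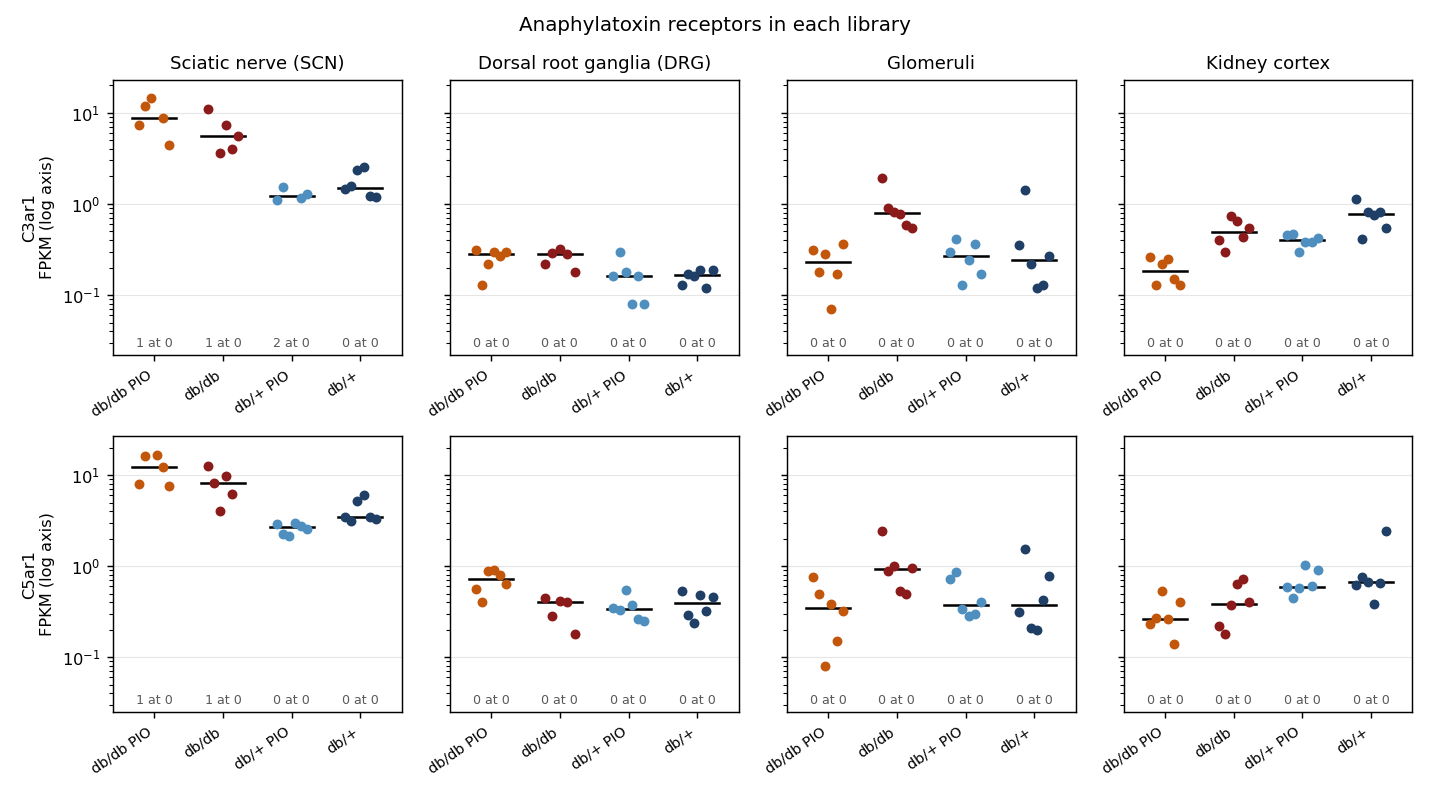
FPKM (log axis) of C3ar1 and C5ar1 in each library, by group and tissue. Points are libraries, bars are medians of the libraries with a value, and the number at 0 stands under each group. In SCN, the db/db PIO libraries sit at 4.37 to 14.36 and the db/db libraries at 3.62 to 10.9 for C3ar1, all above both lean groups, while in glomeruli and cortex all db/db PIO libraries sit below all db/db libraries for C3ar1.

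The responses of the receptors were also compared between nerve and glomeruli. Without the filter, the response of C3ar1 to diabetes was higher in SCN than in glomeruli by 0.90 (SE 0.22, adjusted p = 0.00156) and higher than in DRG by 1.24 (SE 0.22, adjusted p = 4.62e-05). Also without the filter, C1ra ran the other way, with a response to diabetes lower in SCN than in DRG by a difference of -0.69 (SE 0.22, adjusted p = 0.0417), a call that ended in 9 of 44 fits without a single library, 3 each of DRG db/db, SCN db/+ and DRG db/+ (highest adjusted p = 0.102). The response of C5ar1 to diabetes was higher in SCN than in DRG by 0.85 (SE 0.26, adjusted p = 0.0305), which ended without db/db replicate 2 or 5 of DRG or without replicate 1 or 4 of db/db or 1 or 2 of db/+ in SCN (highest adjusted p = 0.120), and its difference from glomeruli was 0.43 (SE 0.25, adjusted p = 0.264). To pioglitazone in db/db mice, the responses of both receptors were higher in SCN than in glomeruli, that of C3ar1 by 1.12 (SE 0.22, adjusted p = 8.54e-05) and that of C5ar1 by 1.09 (SE 0.26, adjusted p = 9.70e-04). Without the filter, 6.36% of all genes were called for SCN against DRG and 16.5% against glomeruli in the response to diabetes, and 19.7% against glomeruli in the response to pioglitazone. From db/+ to db/db, the C3ar1 median went from 1.51 to 5.49 FPKM in SCN and from 0.245 to 0.8 FPKM in glomeruli. In DRG it went from 0.165 to 0.28 FPKM. C5ar1 in glomeruli and DRG and C1ra in DRG also had medians under 1 FPKM. Changes at such levels come out too small on this scale. The part of that in the differences without the filter was not tested. C1ra was the only member above the filter that could be tested between SCN and glomeruli, with a response to diabetes lower in SCN by a difference of -1.16 (SE 0.24, adjusted p = 2.27e-04, with 15.6% of all genes tested called), and to pioglitazone by -0.04 (SE 0.24, adjusted p = 0.943, with 20.8% called). In both tissues C1ra had a value in 3 of 6 db/db libraries, and the part of its zeros in these differences was not tested. Above the filter, no member could be tested between SCN and DRG, where 5.46% of all genes tested were called for diabetes and 3.75% for pioglitazone.

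In the DRG, the members called were all higher in diabetic mice, by small amounts. C1qc had 5.75, 6.13, 6.62 and 6.81 FPKM in db/db, against 4.29, 3.37, 4.32 and 4.31 FPKM in db/+, with no overlap, and rose by 0.53 (SE 0.12, adjusted p = 0.0207). The call ended without DRG db/+ replicate 2 (adjusted p = 0.0546) and with quantile normalization (adjusted p = 0.495). C1qa had 7.71, 7.72, 7.54, 8.51 and 7.45 FPKM in db/db, against 6.84, 4.76, 5.24, 5.9, 6.75 and 4.96 FPKM in db/+. Its ranges did not overlap, yet the log2 change of 0.39 (SE 0.16, adjusted p = 0.156) did not pass in the fit of 4 groups, and did in the fit of these 2 groups alone (adjusted p = 0.0114). The count was 1 of 3 members tested, with 4.13% of all genes tested called. Pioglitazone in db/db mice called none of 3 members (log2 fold changes of 0.07 to 0.20) and 0 of 3794 genes (0%), with 325 at an unadjusted p under 0.05. Against db/+, C1qa had 9.32, 8.35, 7.39, 8.14, 10.85 and 10.81 FPKM in db/db PIO and was higher by 0.59 (SE 0.15, adjusted p = 0.0184), and C1qc, at 6.75, 6.97 and 6.34 FPKM, was higher by 0.60 (SE 0.13, adjusted p = 0.00888), 2 of 3 members tested, with 8.06% of all genes tested called. With quantile normalization neither passed (adjusted p = 0.0572 for C1qa and 0.181 for C1qc). Against db/+ PIO none of 3 members was called, with 8.64% of all genes tested called. Below the filter, C5ar1 had 0.56, 0.4, 0.88, 0.92, 0.8 and 0.64 FPKM in DRG db/db PIO, against 0.35, 0.33, 0.55, 0.37, 0.26 and 0.25 FPKM in db/+ PIO and 0.54, 0.29, 0.24, 0.48, 0.32 and 0.46 FPKM in db/+. The ranges overlapped, and the tests without the filter gave a rise of 0.33 against db/+ PIO (SE 0.08, adjusted p = 0.0170, 4.86% of all genes called) and of 0.29 against db/+ (SE 0.08, adjusted p = 0.0359, 4.17% called). The rise against db/+ ended without db/db PIO replicate 3, 4 or 5 or db/+ replicate 2, 3 or 5 (highest adjusted p = 0.0870). Of the macrophage markers, 3 of 12 tested were higher in db/db than in db/+, and 2 of 12 in db/db PIO than in either lean group. Both adipocyte markers tested were higher in db/db PIO than in either lean group, and Fabp4, the adipocyte marker with a value in every DRG library, had 24.33 to 175.63 FPKM in db/db PIO, 3.5 to 34.72 FPKM in db/db, 3.88 to 78.17 FPKM in db/+ PIO and 1.45 to 29.51 FPKM in db/+. Their part in the DRG results was not tested.

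In lean mice, pioglitazone called no member in any tissue, of 5 tested in SCN, 5 in glomeruli, 4 in DRG and 4 in cortex. Few genes were called at all, 0.0778% of those tested in SCN, 0% in glomeruli, 0% in DRG and 0.025% in cortex, with 659, 118, 403 and 103 genes at an unadjusted p under 0.05 in limma. The member with the largest difference was C1qa in SCN, at 26.63, 34.16, 40.15, 54.7, 46 and 39.97 FPKM in db/+ PIO and the 4 values given above in db/+, with a log2 change of -0.68 (SE 0.18, adjusted p = 0.176).

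Other genes of the complement system, 42 in a list of components, regulators and receptors, were mostly low or missing. The counts of calls below stand beside 14.9% (diabetes) and 10.1% (pioglitazone) of all genes tested in SCN, 10.3% and 3.24% in cortex, 25.4% and 23.1% in glomeruli and 4.13% and 0% in DRG, and with so few genes tested they are not set apart from these shares. In SCN, 9 were tested for diabetes and Itgax, which encodes the alpha chain of complement receptor 4, rose by 1.75 (SE 0.25, adjusted p = 3.37e-04). It had 3.73, 1.94 and 2.84 FPKM in db/db, against 0.22, 0.02, 0.2, 0.12 and 0.06 FPKM in db/+. The db/db values came from 3 of 6 libraries. Itgax reached 1 FPKM in the diabetic groups alone and so passed the filter only through groups where it was high. No conclusion is drawn from that call. With pioglitazone in db/db mice, 7 were tested there and Vsig4, a macrophage receptor for C3b, rose by 0.81 (SE 0.20, adjusted p = 0.0140). It had 1.63 to 2.88 FPKM in db/db PIO (5 libraries) and 0.27 to 1.58 FPKM in db/db (6 libraries). Without the db/db PIO libraries Vsig4 would not have passed the filter, so that no conclusion is drawn from this call. In cortex, 8 were tested for diabetes, and Itgax fell by 0.60 (SE 0.07, adjusted p = 1.53e-05) and Itgb2, the beta chain shared by complement receptors 3 and 4, by 0.55 (SE 0.16, adjusted p = 0.0327), while none of 9 was called with pioglitazone. Itgax had 0.27 to 0.43 FPKM in cortex db/db (6 libraries) and 0.9 to 1.17 FPKM in db/+ (4 libraries). It passed the filter there only through the lean groups, where it was high, and no conclusion is drawn from its call. In glomeruli, C8g, a subunit of C8, fell by 0.45 with pioglitazone (SE 0.16, adjusted p = 0.0488), the only call of 3. It had 0.24 to 1.17 FPKM in db/db PIO and 0.64 to 2.14 FPKM in db/db (6 libraries each). Without the db/db libraries C8g would not have passed the filter, so that no conclusion is drawn from its call. None of 3 was called there with diabetes, where C8g stood at 0.43 (SE 0.16, adjusted p = 0.0550) and Cd93 at 0.54 (SE 0.21, adjusted p = 0.0634). None of 10 was called in DRG in either comparison.

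Likeness of pattern was sought by Pearson correlation of group means of log2(FPKM + 1), among genes with at least 2 values in every group. It was set up for C1qb, C3 and Serping1. All 3 lacked means in some of the 16 groups, and the correlation was therefore taken over the groups they had, a choice made after their values were seen. Over 15 groups, C1qb was most like C1qa (0.98), Clec12a (0.96) and Bcl2a1b (0.96). Over 13 groups, C3 was most like Clca2, Capn6 and Colec11 (0.98, 0.98 and 0.97), and over 14 groups Serping1 was most like LOC100503238, Tmem17 and Prkcdbp (0.98, 0.98 and 0.97). The groups share 4 tissues, so that these values rest largely on the differences between tissues.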

How the data were processed

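RNA-Seq of poly(A) RNA (TruSeq mRNA v2, a kit that does not mark strand) had been carried out on 95 libraries from 4 tissues. The deposited values are FPKM, 1 per gene symbol and library, which the authors made by aligning reads to the mouse transcriptome (NCBI 37, mm9) with TopHat and Bowtie and estimating levels with Cufflinks. Their versions were not given in the sources used here. FPKM hold no counts, and no read totals entered the analysis, so that no counting interval is given. Values were taken as deposited, an exact 0 as missing, and log2(FPKM + 1) was tested with limma 3.58.1 in R 4.3.3, keeping genes with 1 FPKM or more in 5 or more libraries of a tissue and 3 or more values in both groups. The fit of a tissue held its 4 groups, and differences between tissues came from 1 fit of all libraries. P-values were adjusted over all genes tested and called under 0.05. The script was tested on simulated data. Alternatives were a pseudocount of 0.1, no filter, 0 as a value, at least 5 values in both groups, median-of-ratios and quantile scaling, the compared groups alone, a replicate block and leaving out each library. A block of condition and replicate number between tissues, and leaving out libraries without the filter, were added after seeing the data. All 9 genes are named, and other complement genes where called for diabetes or for pioglitazone in db/db mice. The 9 genes and all gene lists were chosen with earlier results of these data known. Coordinates are from GENCODE vM1 on mm9, promoters from RefSeq. Tables and figures used Python 3.11.15, pandas 2.3.3, numpy 2.4.6 and matplotlib 3.10.9. Some marker genes are not reported here.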

Additional observations from a re-analysis of the deposited data

Results flagged for a closer look

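Single libraries stood far from the rest of their group (Dixon's test at the 95% level, on FPKM) in 11 of 101 groups of 4 to 6 values. Chance gives about 1 in 20 for normally distributed values. FPKM need not be so distributed and the groups of different genes share libraries, so that the count is not set against that share. In glomeruli, db/+ replicate 2 stood apart for C1qa (74.28 FPKM, the others 5.32 to 14.61), C3 (1.25 FPKM, the others 0.52 to 0.74) and C3ar1 (1.43 FPKM, the others 0.12 to 0.35). Glomerular db/db replicate 1 stood apart for C3ar1 (1.9 FPKM, the others 0.55 to 0.89) and C5ar1 (2.45 FPKM, the others 0.5 to 1). Also in glomeruli, C1qa had 25.18 FPKM in db/+ PIO replicate 2 (the others 5.93 to 10.54), C1qb 15.33 FPKM in db/+ PIO replicate 1 (the others 8.29 to 10.3) and C4b 0.33 FPKM in db/db PIO replicate 4 (the others 0.07 to 0.11). In DRG, C1qa had 8.51 FPKM in db/db replicate 4 (the others 7.45 to 7.72) and C1qc 3.37 FPKM in db/+ replicate 2 (the others 4.29 to 4.32). In cortex, C5ar1 had 2.42 FPKM in db/+ replicate 6 (the others 0.38 to 0.76).

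Responses differed between tissues by a test of the difference in limma for 7 results. The response to diabetes was higher in glomeruli than in cortex for C1qa (1.55) and lower for C3 (-1.75), and lower in SCN than in glomeruli for C1ra (-1.16). The response to pioglitazone in db/db mice was lower in glomeruli than in cortex for C1qa (-2.30), C1qb (-2.29) and C1qc (-1.55) and higher for Serping1 (0.96).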

How the results depend on the processing

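Precision by depth could not be given from FPKM. With each 0 entered as a value, 1 member was called for pioglitazone in db/db glomeruli and 1 for treated diabetic against untreated lean glomeruli, and 0 in every other comparison. Of the 54 calls, C1qa for diabetes under pioglitazone in SCN (-2.0), C1qa for treated diabetic against untreated lean SCN (-0.67), C1qc for treated diabetic against untreated lean DRG (-0.088), C1qb for diabetes under pioglitazone in cortex (0.19), Serping1 in glomeruli minus cortex (-0.97) and C1qc in the pioglitazone response of glomeruli minus cortex (0.42) turned in direction. With at least 5 values in both groups, the 23 calls that could still be tested kept their call, leaving 0 calls for diabetes in DRG and in glomeruli, for SCN minus DRG, SCN minus glomeruli and their diabetes response, 1 for diabetes in cortex, diabetes under pioglitazone in SCN and in cortex, the diabetes response of glomeruli minus cortex and treated diabetic against untreated lean glomeruli, 2 for pioglitazone in glomeruli and its difference from cortex, and 3 for diabetes under pioglitazone in glomeruli.

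Median-of-ratios rescaling kept 50 of 54 calls, with 0 for pioglitazone in cortex and 1 for diabetes in glomeruli. Quantile normalization kept 43, with 0 for diabetes in DRG, treated diabetic against untreated lean DRG and pioglitazone in cortex, and 1 for diabetes in glomeruli and for the diabetes response of glomeruli minus cortex. Scaling also moved the share of called genes that were higher, for diabetes in glomeruli 64.9% as deposited, 48.7% with median-of-ratios and 55% with quantile scaling, for pioglitazone in glomeruli 31.1%, 51.8% and 37.7%, for diabetes in SCN 51.2%, 47.7% and 97.8%, for diabetes under pioglitazone in SCN 61.1%, 51.1% and 86%, and for pioglitazone in cortex 17.5%, 41.1% and 15.4%. The pseudocount of 0.1 kept 52 calls, with 1 for diabetes in glomeruli, where C1qb had an adjusted p of 0.0598. No filter kept 51, and with the members it let in gave 1 call for diabetes under pioglitazone in DRG, 3 for treated diabetic against untreated lean cortex, 7 for SCN minus DRG, and in responses 3 (diabetes, SCN minus DRG), 4 (diabetes, glomeruli minus cortex), 2 (diabetes, SCN minus glomeruli) and 2 (pioglitazone, SCN minus glomeruli). The compared groups alone gave 0 calls for pioglitazone in cortex, 1 for diabetes in cortex and in glomeruli and 2 for diabetes in DRG. The cause of these changes was not tested.

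Leaving out each library in turn kept the call in 1640 fits of single members, ended it in 56 and turned it in 0. Fits that left a group with fewer than 3 values of a member could not test it and are in none of these counts. C1ra for diabetes in SCN, for instance, was tested in 21 fits and Serping1 for SCN minus DRG in 41. In the ranges below, a member that could not be tested counts as not called. Members called ranged in SCN over 1 to 3 (diabetes), 2 to 3 (diabetes under pioglitazone) and 2 to 4 (treated diabetic against untreated lean), in DRG over 0 to 1, 0 to 1 and 1 to 3, in glomeruli over 0 to 2, 3 to 5 and 4 to 4, and in cortex over 2 to 2, 2 to 3 and 1 to 2. For pioglitazone in db/db mice they ranged over 2 to 4 in glomeruli and 0 to 2 in cortex. They ranged over 1 to 3 for SCN minus DRG, 3 to 4 for glomeruli minus cortex and 2 to 5 for SCN minus glomeruli, and in responses over 2 to 3 (diabetes, glomeruli minus cortex), 0 to 1 (diabetes, SCN minus glomeruli) and 3 to 4 (pioglitazone, glomeruli minus cortex). The other comparisons stayed at 0.

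Samples shared replicate numbers across groups, but the numbers did not pair them. In 24 pairs of groups, none had every same-numbered correlation of deviations over 0.1, and they ran between -0.47 and 0.67. With the number as a replicate block, 52 of 54 calls were kept, C1ra for diabetes in SCN stood at -0.73 (adjusted p = 0.0517, limma) and Serping1 for diabetes in glomeruli at 0.44 (adjusted p = 0.0739). Between tissues, same-numbered libraries of a condition had correlations of -0.245 to 0.303, and none of 24 pairs of groups had every one over 0.1. Among SCN, glomeruli and cortex, the median correlation was higher for same-numbered libraries than for other numbers in every pair of groups. In pairs with DRG it was higher in some and lower in others. Whether the tissues share mice was not settled by this, and p-values between tissues treat the libraries as independent. With condition and number as a replicate block, chosen after seeing the data, 18 of the 19 calls between tissues were kept, and C1qc in the pioglitazone response of glomeruli minus cortex ended at -1.37 (adjusted p = 0.0642).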
